A study of Mus musculus with 7 samples.

Results

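Schwann cell and myelin genes were examined in quadriceps, the large thigh muscle, of mice that had received a liver-directed IGFBP1 vector or its control. The members were the 8 rows of the deposited table of 53819 gene symbols named Pmp22, Mbp, Prx, Mag, Ncmap, S100b, Sox10 and Egfl8. All 8 were in the table, and 7 of them (Mag was left out) had enough reads to be tested together with 14935 genes in all. The labels describe male wild type C57BL/6J mice injected at 8 weeks of age through the tail vein with 200 µl of serotype 8 adeno-associated virus, and muscle taken 54 days later. Of the 7 libraries, 4 came from muscle of mice given AAV8-Alb-Null (here AAV8-Null), and the remaining 3 followed AAV8-Alb-IGFBP1 (here AAV8-IGFBP1), so every animal carried a virus and the controls are not uninjected mice. Alb in the vector's name stands for the albumin gene, whose promoter is active mainly in liver. Replicates are numbered, without a statement that they are different mice. Each p-value therefore reflects the spread among these libraries, which may be technical.

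Schwann cells are the glia of peripheral nerve. In muscle they wrap the motor and sensory axons that run between the fibres, and specialised, non-myelinating Schwann cells cover the nerve terminal at the neuromuscular junction. Myelinating Schwann cells wind their membrane into compact myelin, held together by proteins such as those of Pmp22 and Mbp. The transcription factor SOX10 is needed throughout the lineage and acts with EGR2 on many myelin genes. A block of muscle holds few of these cells, so their transcripts are rare beside those of the fibres. In whole tissue, fewer Schwann cells and less RNA per Schwann cell cannot be told apart.

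In AAV8-IGFBP1 muscle no member of the 7 tested passed the test over all genes, in either direction. The fitted difference was below 0 for each of them, for S100b by only -0.00172 on the log2 scale. Over 19 processing alternatives the difference was below 0 in 9 for S100b, 17 for Prx and 18 for Mbp. For the other tested members it was below 0 in every fit that held them. Pmp22 was 1.38-fold lower and Sox10 1.73-fold lower, and for these 2 genes every AAV8-IGFBP1 library lay below every AAV8-Null library. Mbp, Prx, Ncmap, Egfl8 and Mag overlapped between the groups, and so did S100b, with means of 0.972 and 0.974 CPM (AAV8-Null and AAV8-IGFBP1). The quasi-likelihood test of edgeR called 0 of 7 members (adjusted p under 0.05), against 0.556% of all genes tested. At an unadjusted p under 0.05 there were 2 members lower (Pmp22 and Sox10) and 0 higher, where 6.85% of all genes were lower and 5.8% higher. DESeq2 called 1 member, Pmp22, as lower, against 1.66% of genes that it called lower and 3.18% that it called in either direction. These DESeq2 shares are over the 14055 genes to which it gave an adjusted p, and Ncmap was not among them. Limma-voom called 0 members against 0.415% of genes called. Groups that did not overlap, with AAV8-IGFBP1 lower, were seen for 2 of 7 tested members and for 6.01% of all genes. In the opposite direction it was 0 members and 6.33% of all genes. The median log2 fold change was -0.44 over the 7 tested members and -0.000653 over all genes. The genes were proposed as a set with earlier results of these data known and a Schwann cell list had been examined in them, so the shared direction is not independent evidence.

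**Figure D1:**
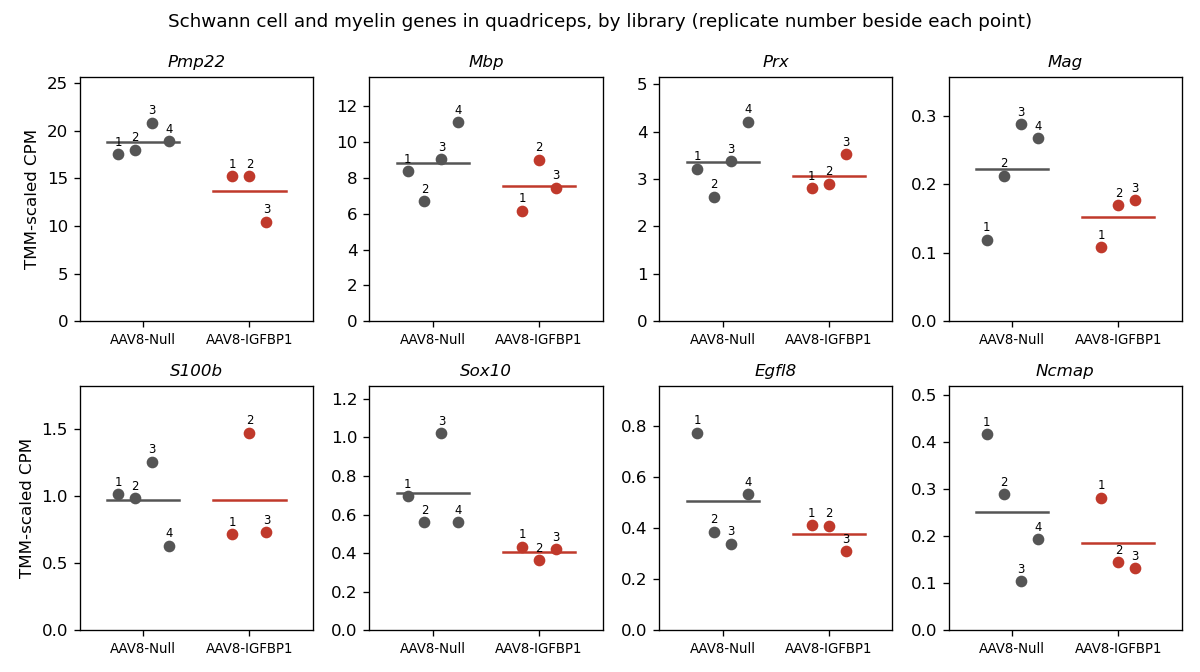
Level of each of the 8 genes in the 7 libraries, in TMM-scaled CPM (vertical axes from 0), with the replicate number beside each point and a bar at the group mean. Only Pmp22 and Sox10 have all AAV8-IGFBP1 points (red) below all AAV8-Null points (grey).

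The libraries held 38947493 to 51210391 estimated counts. A count of 0 allows up to 3 counts, which is 0.0580 to 0.0786 CPM per library and covers counting error only. CPM is the gene's count divided by the library total, after edgeR's TMM scaling, on the usual CPM scale. Igfbp1 itself had 142 to 1425 counts in the AAV8-IGFBP1 libraries and 0, 0, 0 and 8 in AAV8-Null, so the libraries go with their labels. Muscle markers such as Acta1, Ckm and Myh4 summed to 142116 to 171578 CPM in every library. Other Schwann cell genes were present, such as Erbb3, a neuregulin receptor gene, at 2.32 to 5.03 CPM. Dhh, a Schwann cell ligand gene, lay at 0.314 to 1.12 CPM. These 2 were picked from 31 listed genes of Schwann cell identity, receptors and regulators, of which 8 had too few reads to be tested. Among those 8, Sox2 had 0 to 2 counts. Oligodendrocytes share Mbp, Mag and Sox10 with Schwann cells, and melanocytes share Sox10. Of 9 oligodendrocyte markers 4 (Mog, Mobp, Olig2 and Ermn) had 0 counts in all 7 libraries, and the others besides Mag had at most 2 in a library. Of 7 melanocyte markers 2 (Tyr and Oca2) had 0 counts in all libraries, while Dct had 1 to 11 counts and was seen in each. These lists summed to 0.152 to 0.314 CPM, Mag included, and to 0.0580 to 0.258 CPM.

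Compared per kilobase of annotated exon, the 8 genes differed widely in level. Pmp22 stood highest in AAV8-Null at 7.99 ± 0.613 CPM per kilobase (SD, n = 4), followed by Mbp at 1.04 ± 0.214. S100b at 0.655 ± 0.173 and Prx at 0.602 ± 0.117 did not differ beyond their spread. The same held for Egfl8 at 0.289 ± 0.111 and Sox10 at 0.233 ± 0.0713. Ncmap lay at 0.113 ± 0.0601 and Mag lowest at 0.0545 ± 0.0185 CPM per kilobase. Exon lengths came from the GENCODE M21 models, which are of the GRCm38 build and not of the build of the counts.

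Pmp22 encodes peripheral myelin protein 22, a small membrane protein of compact myelin whose dosage matters for peripheral nerve, and which fibroblasts and other cells outside nerve also make. Its transcription starts at more than 1 place. The RefSeq table used here (GRCm38.p6) lists 4 start sites on the plus strand of chromosome 11, and the gene counts sum over them, so the data cannot say which start the difference comes from. The 250 bases before the first and the second start are shown because Pmp22 was 1 of the 2 members with groups that did not overlap. Whether SOX10 acts on Pmp22 in these samples was not tested. Capitals mark the SOX core letters CAAAG and CAATG on either strand.
Pmp22 start 1, chr11:63128732-63128981, plus strand: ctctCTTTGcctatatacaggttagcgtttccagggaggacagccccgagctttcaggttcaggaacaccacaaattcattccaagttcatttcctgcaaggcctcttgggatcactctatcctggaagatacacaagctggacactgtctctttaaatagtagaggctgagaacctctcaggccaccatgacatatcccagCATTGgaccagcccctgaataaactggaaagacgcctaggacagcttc
Pmp22 start 2, chr11:63131207-63131456, plus strand: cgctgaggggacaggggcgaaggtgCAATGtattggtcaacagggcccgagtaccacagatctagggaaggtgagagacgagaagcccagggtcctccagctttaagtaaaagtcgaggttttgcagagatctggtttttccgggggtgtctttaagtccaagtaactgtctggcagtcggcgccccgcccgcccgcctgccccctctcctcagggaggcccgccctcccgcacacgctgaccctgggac
The first window held 1 match to CAAAG and 1 to CAATG, and the second held 1 to CAATG. Of the Pmp22 windows not shown, that of start 3 held 1 match to CAAAG and 0 to CAATG. The window of start 4 held 0 matches to either. Such short motifs are common: of 32851 windows of this length in the table, 48.6% held CAAAG, 32.6% held CAATG and 65% held either. Of the 12 windows of the 6 members in the table, 9 held either motif. The windows of Mag starts 1 and 2 overlap and hold the same match, which was counted in both. The EGR letters GCGNGGGCG were in 0 of these 12 windows and in 4.7% of all windows. A match is a description of letters and not a binding site. Sox10 and Mbp had no window in the table.

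Pmp22 was measured at 17.6, 18.0, 20.8 and 18.9 CPM in AAV8-Null replicates 1 to 4. It lay at 15.2, 15.2 and 10.5 CPM in AAV8-IGFBP1 replicates 1 to 3. All 3 AAV8-IGFBP1 libraries were below the lowest control, and replicate 3 was well below the other 2. With 472 to 931 counts per library, this was the most precisely counted member. The means were 18.8 ± 1.44 CPM (SD, n = 4) and 13.6 ± 2.75 CPM (SD, n = 3), with a log2 fold change of -0.47 (SE 0.13, 95% interval -0.76 to -0.17). The edgeR adjusted p was 0.185 (unadjusted 0.00639), short of the threshold. With DESeq2 it was 0.0467, just past it, and with limma-voom 0.193. The exact permutation p of the CPM values was 0.0286 (two-sided), the smallest that 35 splits of 7 libraries can give. Without AAV8-IGFBP1 replicate 3 the log2 fold change was -0.31, and without both libraries numbered 3 it was -0.25. Over all alternatives the adjusted p ran from 0.0467 to 0.466 and the difference stayed below 0 in 19 of 19.

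Mbp encodes myelin basic protein, which brings the cytoplasmic faces of the myelin membrane together, and which has longer transcripts that other cells, immune cells among them, also make. Its level was 8.39, 6.71, 9.06 and 11.1 CPM in the AAV8-Null replicates and 6.17, 9.02 and 7.46 CPM in the AAV8-IGFBP1 replicates. The groups overlapped, with AAV8-IGFBP1 replicate 2 above 2 of the controls. The log2 fold change was -0.22 (SE 0.18, 95% interval -0.63 to 0.19, edgeR adjusted p = 0.676), so a decrease of the size fitted for Pmp22 lay within the interval. Without single libraries it ran from -0.37 (AAV8-IGFBP1 replicate 2 left out) to -0.09 (AAV8-Null replicate 4 left out). With the slow fibre level of each library as a covariate, an added fit, Mbp came out at 0.15 (log2). That level was -0.39 to 1.16 in AAV8-Null and -1.60 to -0.0058 in AAV8-IGFBP1. With 7 libraries such a fit cannot fully tell the slow fibre level and the group apart, here and for the other genes.

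Prx encodes periaxin, a scaffold that links the Schwann cell's outer membrane to its cytoskeleton. Its level was 3.22, 2.63, 3.38 and 4.21 CPM in AAV8-Null and 2.80, 2.90 and 3.52 CPM in AAV8-IGFBP1. The groups overlapped almost fully. Its fitted log2 fold change was -0.12 (SE 0.18, 95% interval -0.52 to 0.27, edgeR adjusted p = 0.832). A slow fibre covariate gave 0.23, and the value was 0.0021 without AAV8-Null replicate 4, the control with the highest value.

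Mag encodes myelin-associated glycoprotein, an adhesion protein on the inner myelin membrane next to the axon. It had 6, 11, 11 and 11 counts in AAV8-Null and 5, 7 and 8 in AAV8-IGFBP1, which is 0.119 to 0.288 CPM and 0.109 to 0.177 CPM. These counts are under the filter of the test. In edgeR without a count filter the log2 fold change was -0.52 (adjusted p = 0.734), and in the 3 fits that left out an AAV8-IGFBP1 library, where Mag passed the filter, it was -0.65 to -0.33 (adjusted p 0.709 to 0.886). The exact permutation p of the CPM values was 0.2 (two-sided), and a difference was not detectable at this depth. Ncmap, the gene of a protein of non-compact myelin, had 21, 15, 4 and 8 counts in AAV8-Null and 13, 6 and 6 in AAV8-IGFBP1. The controls alone spread from 0.105 to 0.417 CPM, wider than the gap between the groups. Its log2 fold change was -0.45 (SE 0.53, 95% interval -1.63 to 0.73, edgeR adjusted p = 0.786), and it was -0.87 when AAV8-IGFBP1 replicate 1 was left out and -0.25 when replicate 3 was.

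Sox10, the lineage transcription factor gene, was at 0.696, 0.561, 1.02 and 0.560 CPM in AAV8-Null and at 0.434, 0.363 and 0.421 CPM in AAV8-IGFBP1. The 3 AAV8-IGFBP1 libraries lay close together and below all controls, and AAV8-Null replicate 3 stood highest. These levels rest on 23 to 39 counts in AAV8-Null and 15 to 20 in AAV8-IGFBP1. The log2 fold change was -0.79 (SE 0.31, 95% interval -1.49 to -0.09), the edgeR adjusted p was 0.340 (unadjusted 0.0302), and the DESeq2 adjusted p was 0.387. The exact permutation p was 0.0857 (two-sided). Left-out libraries moved the log2 fold change between -0.89 and -0.57, with adjusted p-values of 0.300 to 0.560. The gene was dropped by the stricter count filter. It stayed below 0 in the other 18 alternatives and passed the threshold in 0 of them.

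S100b encodes a calcium-binding protein used as a Schwann cell marker, which fat cells also make. It lay at 1.01, 0.986, 1.26 and 0.633 CPM in AAV8-Null and at 0.717, 1.48 and 0.731 CPM in AAV8-IGFBP1. The highest value was in AAV8-IGFBP1 replicate 2, the library with the highest fat cell markers (summed adipocyte markers 1722 CPM against 284 to 547 in the other 6). The log2 fold change was -0.00172 (95% interval -0.74 to 0.74, edgeR adjusted p = 0.999). It was -0.42 without that library, and -0.27 with the adipocyte level as covariate, and both missed the threshold (adjusted p = 0.699 and 0.842). The part of fat cells in the S100b values was not tested.

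Egfl8 encodes a secreted protein with EGF-like repeats. It lay at 0.775, 0.387, 0.340 and 0.536 CPM in AAV8-Null and at 0.413, 0.411 and 0.310 CPM in AAV8-IGFBP1. The groups overlapped, and AAV8-Null replicate 1 was the highest library. The log2 fold change was -0.44 (SE 0.36, 95% interval -1.25 to 0.38, edgeR adjusted p = 0.678), and it was -0.15 without that control and -0.10 with a slow fibre covariate. Egfl8 is uncertain for a further reason: its estimated counts were not whole in 3 of 7 libraries, and GENCODE M21 places Gm20460 over it on the same strand and Agpat1 on the other, so reads may be shared. The other members with a gene on the opposite strand were Mbp, Prx, S100b and Ncmap, and whether reads were counted by strand is not given in the sources used here.

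The 7 tested members did not move as 1 block across the libraries. Over 21 pairs, Pearson's r of log2 CPM over 7 libraries had a median of 0.17, ran from -0.44 (Prx with S100b) to 0.77 (Mbp with Prx), and was above 0 in 15. Pmp22 and Sox10 had an r of 0.71, and Egfl8 and Ncmap 0.74. These are descriptions, since the pairs share libraries and scaling and the low counts of Sox10, Egfl8 and Ncmap add noise. The mean level of the 8 members, as log2 CPM centred over the libraries, was 0.22, 0.02, 0.17 and 0.15 in AAV8-Null and -0.20, -0.07 and -0.29 in AAV8-IGFBP1. AAV8-Null replicate 2 and AAV8-IGFBP1 replicate 2 were the nearest libraries of the 2 groups. Of 10216 genes whose mean log2 CPM was 1 or more, those most like this level over the 7 libraries were Jag1 (r = 0.99), Unc5b (0.98), Vav2 (0.98), Scai (0.98), Niban1 (0.97) and BC002059 (0.97). None of the 6 passed edgeR's test (adjusted p 0.0711 to 0.417) and they were picked as the highest of all those correlations, so their r is a description. DESeq2 called 2 of them, Unc5b and Niban1.

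The other genes of the same biology were 53 listed genes of myelin, Schwann cell identity and its receptors, of which 42 were tested. The lists came from textbook knowledge, but earlier results of these data were known when they were chosen. Their shared direction is therefore not independent evidence. Of these 42, 0 were called in either direction by edgeR or limma-voom, where 0.556% and 0.415% of all genes were. DESeq2 called 3 lower and 0 higher, beside 1.66% lower of the genes to which it gave an adjusted p. It gave none to Fa2h, Dusp15, Pou3f1 and Gldn among the 42. At an unadjusted p under 0.05 by edgeR 11 were lower and 1 higher, beside 6.85% and 5.8% of all genes. Of the fitted values 35 were below 0 and 7 above 0, with a median of -0.29, where 50.1% of all genes were below 0. Groups did not overlap, with AAV8-IGFBP1 lower, in 6 of the 42, beside the 6.01% of all genes. Leaving out AAV8-Null replicate 4 gave a median of -0.19, and so did a slow fibre covariate.

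**Figure D2:**
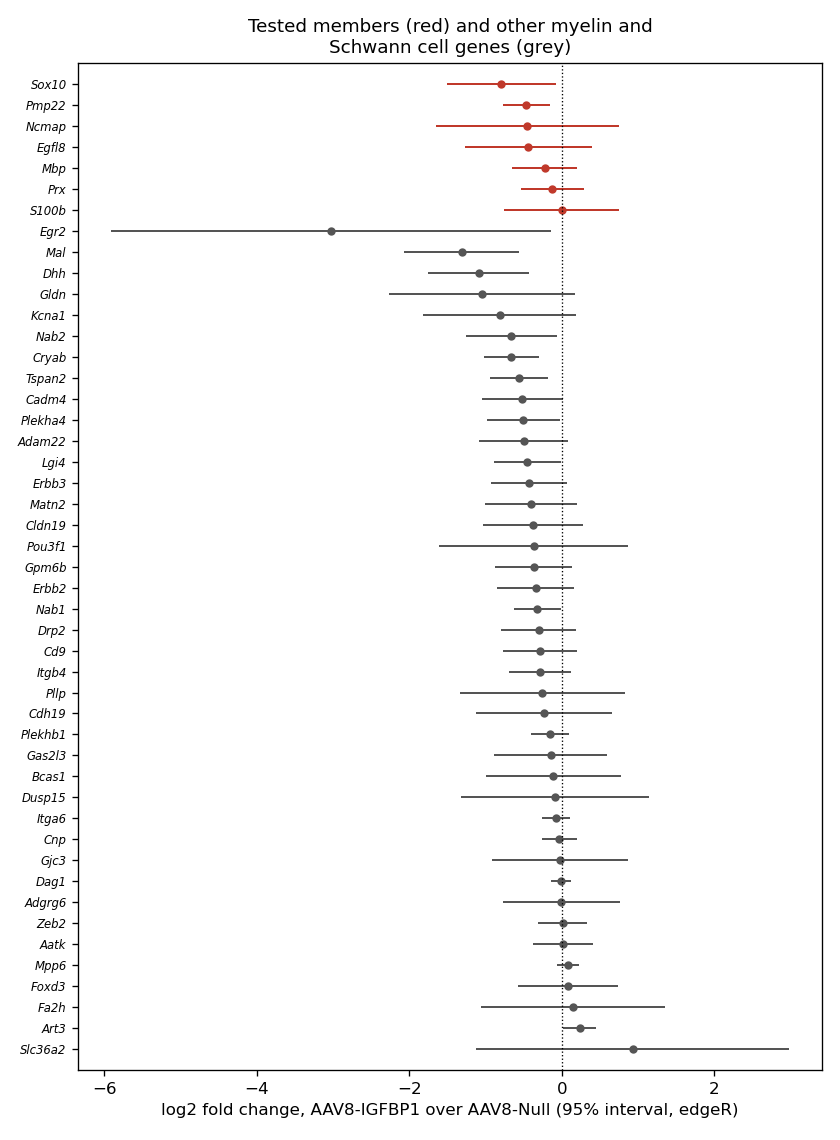
Log2 fold change of AAV8-IGFBP1 over AAV8-Null with its 95% interval from edgeR (horizontal axis) for the 7 tested members (red) and 40 of the 42 other tested myelin and Schwann cell genes (grey). Most points lie left of 0, no gene passes the adjusted threshold, and the widest interval is that of Egr2.

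Among the myelin proteins, Mal, the gene of a lipid raft protein of myelin, lay at 0.812 to 1.56 CPM in AAV8-Null and at 0.376 to 0.702 CPM in AAV8-IGFBP1 (log2 fold change -1.31, SE 0.33, edgeR adjusted p = 0.134, DESeq2 0.0243). Tspan2, a tetraspanin gene, had 4.31 to 6.16 CPM in AAV8-Null and 2.99 to 3.78 CPM in AAV8-IGFBP1 (log2 fold change -0.56, edgeR adjusted p = 0.195). Cryab, which encodes a small heat shock protein that muscle fibres, slow ones above all, make in quantity, had 605 to 893 CPM in AAV8-Null and 428 to 563 CPM in AAV8-IGFBP1. Its log2 fold change was -0.66 (edgeR adjusted p = 0.118, DESeq2 0.000399), and it was -0.29 with a slow fibre covariate. The part of the fibres in this value was not tested. Mal and Cryab were among the 3 genes DESeq2 called.

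Among the identity and signalling genes, Dhh, which encodes the Desert hedgehog ligand that Schwann cells send to the nerve sheath, lay at 0.696 to 1.12 CPM in AAV8-Null and at 0.314 to 0.521 CPM in AAV8-IGFBP1. The groups did not overlap, and the log2 fold change was -1.09 (SE 0.29, 95% interval -1.74 to -0.44, edgeR adjusted p = 0.157). Plekha4 had -0.50 (edgeR adjusted p = 0.355), Nab2, which encodes a cofactor of EGR proteins, -0.66 (0.347; -0.41 without AAV8-Null replicate 2), and Art3, which muscle fibres also express, 0.24 (0.326). Erbb3, the neuregulin receptor gene of Schwann cells, had 3.27 to 5.03 CPM in AAV8-Null and 2.32 to 4.01 CPM in AAV8-IGFBP1 (log2 fold change -0.43, edgeR adjusted p = 0.458), and its log2 fold change was -0.67 when AAV8-IGFBP1 replicate 3 was left out and -0.27 when replicate 2 was. Egr2, picked after its values were seen because it encodes the myelination factor that acts with SOX10, lay at 1.99, 11.5, 1.70 and 0.682 CPM in AAV8-Null. In AAV8-IGFBP1 it lay at 0.434, 0.411 and 0.620 CPM, below every control. Its log2 fold change of -3.03 had an SE of 1.16 and an edgeR adjusted p of 0.375, and it was -1.57 without AAV8-Null replicate 2. Egr2 is also an immediate early gene in many cell types.

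For the next 3 lists the shares of all genes were 6.85% lower and 5.8% higher at an unadjusted p under 0.05, and 50.1% below 0. The first list held genes of non-myelinating and terminal Schwann cells. Of 14 listed, 10 were tested, 0 were called by edgeR, DESeq2 or limma-voom, 1 had an unadjusted p under 0.05 by edgeR, 6 were below 0 and the median was -0.05. Those with the lowest p were Sema3b (log2 fold change -0.34, edgeR adjusted p = 0.360), Ednrb (-0.47, 0.469), Chl1 (0.72, 0.589) and Scn7a (0.19, 0.693). Single libraries weighed on them: Ednrb was -0.21 without AAV8-Null replicate 3, Chl1 was 0.14 without AAV8-IGFBP1 replicate 2, and Scn7a ran from 0.11 to 0.33 over left-out libraries. Genes of the repair Schwann cell, the state that follows nerve injury, gave 0 calls by any of these tools and 1 unadjusted p under 0.05 by edgeR among 7 tested of 12 listed, with 6 below 0 and a median of -0.41. Atf3, a stress and injury response gene not limited to Schwann cells, had 7.84 to 9.65 CPM in AAV8-Null and 1.80, 1.86 and 6.18 CPM in AAV8-IGFBP1 replicates 1 to 3 (log2 fold change -1.43, edgeR adjusted p = 0.292). Without AAV8-IGFBP1 replicate 3 it was -2.27 and passed the test (edgeR adjusted p = 0.00140). Ucn2 (-0.55, 0.517), Jun (-0.32, 0.577; -0.15 without AAV8-Null replicate 3) and Gdnf (-0.43, 0.625) did not pass. Cholesterol synthesis genes, whose product is a main lipid of myelin but which every cell uses, had 14 of 21 above 0, a median of 0.06, 0 calls by any of these tools and 1 unadjusted p under 0.05 by edgeR.

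Markers of nerve structures and of other cells were measured beside these genes. Among 12 axon and neuron genes, whose transcripts lie mostly in cell bodies outside muscle, 2 were tested: Uchl1 (log2 fold change -0.32, edgeR adjusted p = 0.444) and Stmn2 (-0.31, 0.713; -0.53 without AAV8-Null replicate 2 and -0.19 without AAV8-Null replicate 3). Their list summed to 3.81 to 5.19 CPM in AAV8-Null and 3.57 to 4.08 CPM in AAV8-IGFBP1, and Snap25 and Chat had 0 counts everywhere. Perineurial markers, of the sheath around nerve bundles, summed to 9.51 to 13.1 and 8.27 to 11.1 CPM, with 7 of 9 tested and 5 below 0. Endoneurial fibroblast markers summed to 44.3 to 64.1 and 38.7 to 57.4 CPM, with 7 of 8 tested and 5 below 0. All 3 sums overlapped between the groups, but single genes did not always. Groups did not overlap, with AAV8-IGFBP1 lower, in 1 of 2 tested axon genes, 0 of 7 perineurial and 1 of 7 endoneurial markers. That share was 6.01% over all genes, and 50.1% of all genes were below 0. These genes were Uchl1 (2.20 to 2.60 against 1.66 to 2.04 CPM) and Sox9 (2.19 to 5.16 against 1.80 to 2.06 CPM, edgeR adjusted p = 0.397). Neuromuscular junction genes of the muscle side, such as the acetylcholine receptor subunits, had 6 of 10 tested below 0, a median of -0.03 and 0 calls by edgeR, 1 of them with an unadjusted p under 0.05. That gene, Dok7, named after its values were seen, encodes an activator of the junction's receptor kinase MuSK. It lay at 9.83 to 10.8 CPM in AAV8-Null and at 12.8 to 14.0 CPM in AAV8-IGFBP1, with no overlap (log2 fold change 0.37, SE 0.07, edgeR adjusted p = 0.0635). It passed with DESeq2 (adjusted p = 0.00714) and in edgeR without a count filter (0.0323).

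Other tissue components also differed in level between libraries. Slow fibre genes summed to 659 to 2036 CPM in AAV8-Null and 284 to 901 CPM in AAV8-IGFBP1 (exact permutation p = 0.114, two-sided), with all 9 tested below 0. Fibroblast markers, relevant to Pmp22, summed to 532 to 849 and 346 to 595 CPM (exact permutation p = 0.171), with 8 of 9 below 0. AAV8-IGFBP1 replicate 3 had the lowest fibroblast sum and the lowest Pmp22. Tenocyte markers, a measure of tendon in the sample, summed to 179 to 414 and 82.0 to 331 CPM (exact permutation p = 0.629), with the extremes in AAV8-Null replicate 3 and AAV8-IGFBP1 replicate 3. With the tenocyte level as covariate the log2 fold change of Pmp22 was -0.32 and that of Sox10 -0.61. With the slow fibre level they were -0.67 and -0.76. None of these 4 values passed the threshold. Smooth muscle and pericyte markers held the only gene of all the lists that edgeR called, Tagln (2.14-fold lower in mean CPM, edgeR adjusted p = 0.00778). DESeq2 called 3 genes of that list, 2 of the fibroblast list and 1 of the slow fibre list, all lower, where it called 1.66% of genes lower. Of the macrophage markers 8 of 9 and of the endothelial markers 9 of 9 were below 0, with medians of -0.18 and -0.05. Over all genes tested 50.1% were below 0, and some endothelial values were close to 0, such as Tie1 at -0.0039. Slow fibre genes had a median of -1.44, and tenocyte markers had -0.43, with 9 of 9 below 0. Smooth muscle and pericyte markers had -0.37 and fibroblast markers -0.35, where the tested members had -0.44. The adipocyte and skeletal muscle lists had medians above 0, at 1.01 and 0.05. The part of these components in the values of the Schwann cell and myelin genes was not tested.

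**Figure D3:**
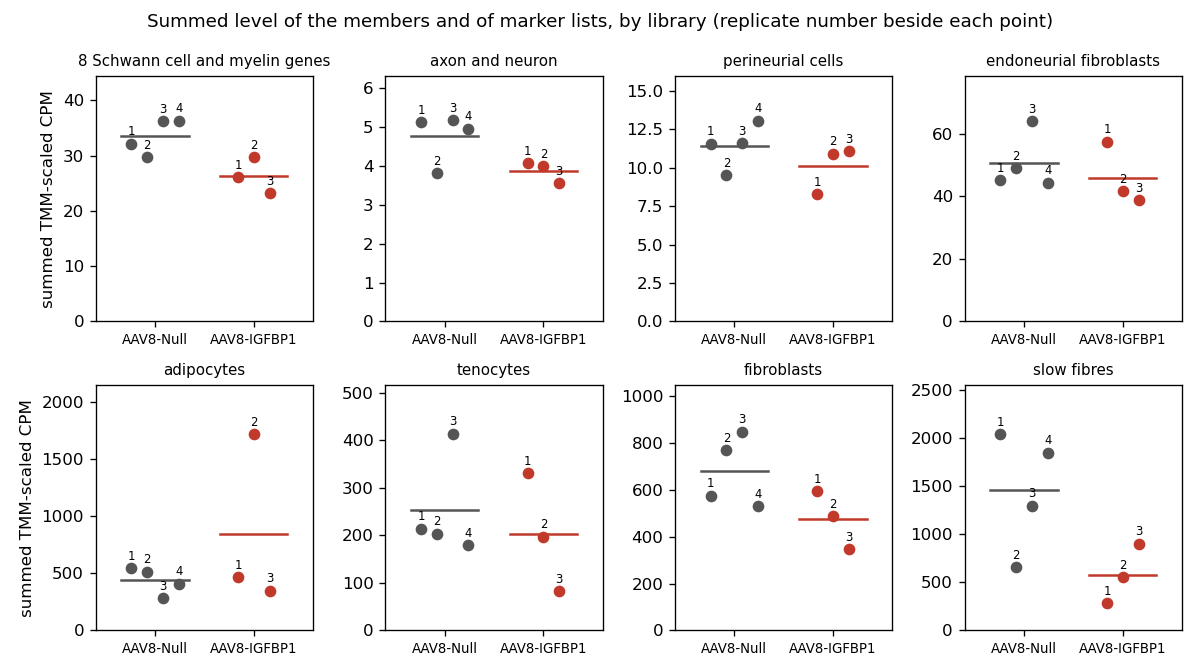
Summed TMM-scaled CPM of the 8 genes and of 7 marker lists in the 7 libraries (vertical axes from 0), with replicate numbers beside the points and bars at the group means. The sum of the 8 genes is 29.8 to 36.4 CPM in AAV8-Null and 23.2 to 29.7 CPM in AAV8-IGFBP1, most of it Pmp22 and Mbp. Its groups are separated only by 29.78 CPM (AAV8-Null replicate 2) against 29.71 CPM (AAV8-IGFBP1 replicate 2). The 7 marker sums overlap between the groups. Their means also differ, as in slow fibres (1459 and 579 CPM) and adipocytes (439 and 846 CPM, AAV8-Null and AAV8-IGFBP1).

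**Figure D4:**
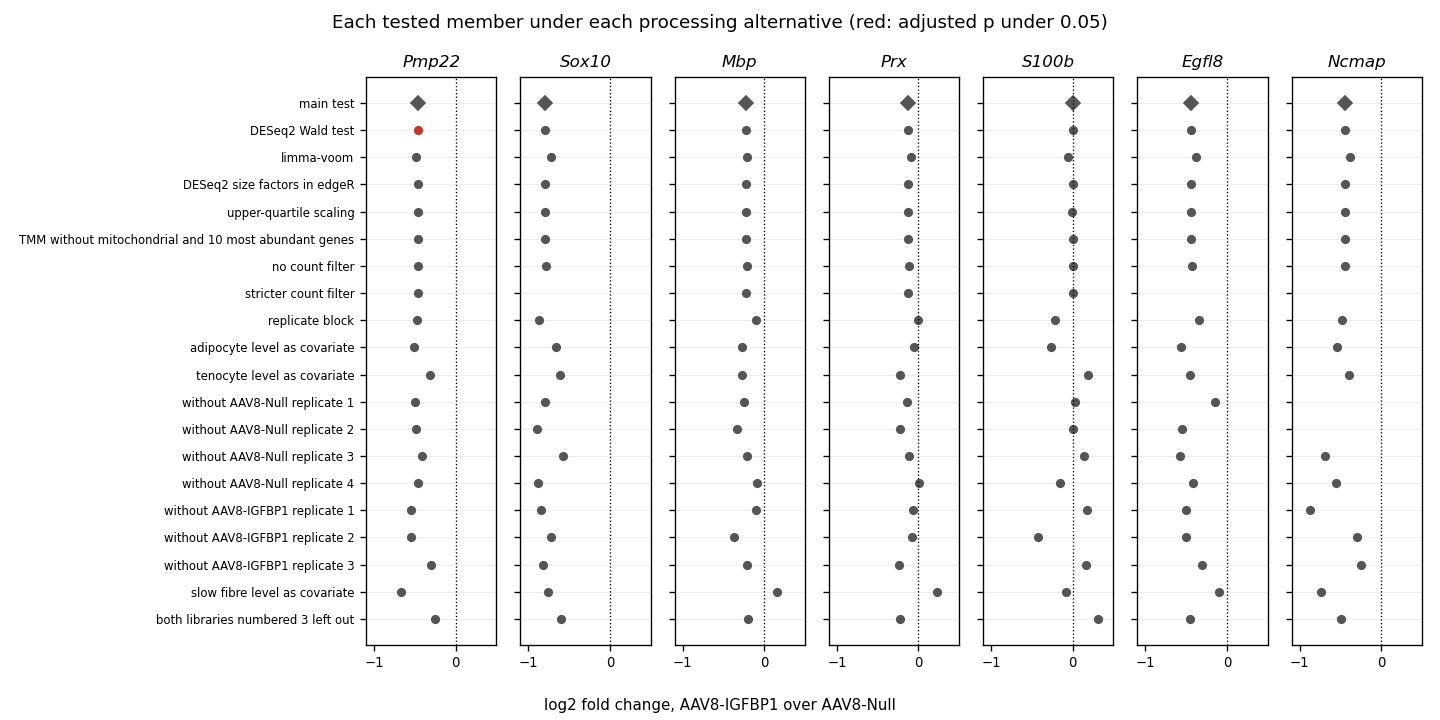
Log2 fold change (horizontal axes) of the 7 tested members under the main test (diamonds) and each alternative (points), red where the adjusted p is under 0.05. The only red point is Pmp22 with DESeq2. Pmp22, Sox10, Egfl8 and Ncmap lie below 0 in every fit that held them, and Mbp, Prx and S100b lie on both sides of 0.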

How the data were processed

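RNA from mouse quadriceps was sequenced in 4 AAV8-Null and 3 AAV8-IGFBP1 libraries (RNeasy Mini Kit, Universal Plus mRNA-Seq with NuQuant, per the labels' protocols). The deposited table holds estimated counts per gene symbol. The submitters' processing notes name, without roles, the build GRCm39 and the tools Salmon 1.10.1, STAR 2.7.9a, Trim Galore 0.6.7, cutadapt 3.4 and R 4.2.2. Annotation and strandedness: not given in the sources used here. Counts were rounded to whole numbers. Genes passing filterByExpr (minimum count 10) were TMM-scaled and tested with edgeR 4.0.16 (quasi-likelihood, Benjamini-Hochberg over 14935 genes, threshold 0.05) in R 4.3.3; DESeq2 1.42.0, limma-voom (limma 3.58.1), other scalings and filters, covariates and left-out libraries were alternatives. The code was tested on simulated data. SEs came from the F statistic. Members and lists were chosen with earlier results of these data known. Named were all 8 members; in the Schwann cell and axon lists, genes past the threshold and otherwise the 4 with the lowest p; the 6 genes most like the member level; and marker genes beside a result. Egr2, Erbb3 and Dok7 were chosen after their values were seen. Some genes of the lists are counted but not reported here by name.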

Additional observations from a re-analysis of the deposited data

Results flagged for a closer look

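Of 56 sets of AAV8-Null values that were checked for 1 library far from the other 3, 8 had such a library. Chance gives about 1 in 20 for independent sets not picked by their values. These sets share their libraries, and Egr2, Jag1 and Niban1 were picked with their values known, so the rates cannot be compared directly. None was a member. In AAV8-Null replicate 2, Egr2 stood high at 11.5 CPM, and Niban1 at 11.5 CPM, Jag1 at 6.17 CPM, Chl1 at 0.464 CPM and the axon and neuron sum at 3.81 CPM also stood apart from the other controls. In AAV8-Null replicate 3, Tspan2 at 6.16 CPM, Ednrb at 10.2 CPM and the tenocyte sum at 414 CPM stood apart.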

How the results depend on the processing

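The number of members called was 0 lower and 0 higher under 18 of 19 alternatives, and 1 lower with DESeq2. Of the other myelin and Schwann cell genes DESeq2 called 3 lower and the fit without a count filter 1 (Mal). The share of all genes called, 0.556%, was 3.18% with DESeq2, 1.12% without a filter, 0.288% with the slow fibre covariate, 0.277% without both libraries numbered 3, and 0.129% to 0.581% when single libraries were left out (lowest without AAV8-Null replicate 1). The median of the tested members, -0.44, was -0.17 with the stricter filter (which drops the rarer members), -0.32 with the tenocyte covariate, -0.10 with the slow fibre covariate, -0.25 without both libraries numbered 3, and -0.46 to -0.20 with single libraries left out. Mag enters the fit without a filter and the 3 without an AAV8-IGFBP1 library. The slow fibre covariate and the fit without both libraries were added after the data were seen. The slow fibre level went largely with the group, so the covariate fit cannot fully tell the 2 apart. The sign turned for S100b (0.000294 with TMM on fewer genes, 0.00665 without a filter, 0.000616 with the stricter filter, 0.19 with the tenocyte covariate, 0.31 without both libraries numbered 3, -0.42 to 0.18 with single libraries left out), for Prx (-0.23 to 0.0021 with single libraries left out), and with the slow fibre covariate for Prx (0.23), Mbp (0.15), Scn7a (-0.13), Stmn2 (0.16) and Erbb3 (0.031). The cause of these changes was not tested. Deviations from the group means were not alike between libraries of the same replicate number (same-number r -0.0984 to 0.0682, 0 of 3 best with its own number). So few correlations cannot tell whether the numbers stand for a shared batch. With the replicate block 0 members and 0 other genes were called, 0.127% of all genes were called, the member median was -0.34, and Tagln had an edgeR adjusted p of 0.0527. Depth limits Mag, Ncmap, Egfl8 and Sox10, with at most 39 counts in a library.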
